A study of Arabidopsis thaliana with 18 samples.

Results

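The chloroplast genome of Arabidopsis thaliana (thale cress) was followed through every locus of the deposited tables whose identifier starts with ATCG, which gave 133 of 33602 loci. Of these, 5 loci were at 0 in all 18 libraries (3.76%, against 19.2% of all loci), 124 were above 0 with a mean below 1 FPKM, and 4 had a mean of at least 1 FPKM and were tested (3.01%, against 58.0% of all loci). FPKM is the number of sequenced fragments per kilobase of gene and per 1000000 fragments of the library. The plants were wild type (WT), and their roots were taken after 14 days on agar plates in cycles of 16 h of light and 8 h of dark. The 6 groups of 3 libraries were a solvent control with DMSO (below 0.01% by volume) and roots grown with bisphenol A (BPA), bisphenol B (BPB), bisphenol E (BPE), bisphenol F (BPF) or bisphenol S (BPS). Plates of 1, 3 and 10 mg/L were prepared, and no label gives the dose behind a library, so whether doses were matched between compounds is unknown. In these compounds the bridge between the phenol rings is a carbon with a pair of methyl groups in BPA, with an ethyl group in place of a methyl group in BPB, with a single methyl group in BPE and with none in BPF, and it is a sulfonyl group in BPS. Nothing in the labels says whether the libraries of a group were grown apart, and the spread behind the p-values may be technical.

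The plastid genome codes for part of the photosystems, the cytochrome b6f complex, the ATP synthase, the NDH complex and the large subunit of Rubisco, for ribosomal and transfer RNAs and ribosomal proteins, and for the core subunits of a bacterial-type RNA polymerase. That polymerase transcribes mainly the photosynthesis genes and works with sigma factors and associated proteins encoded in the nucleus, while a phage-type polymerase, also encoded in the nucleus, transcribes rpoB and other housekeeping genes. Plastid messages mostly lack the long poly(A) tail of nuclear messages, and a tail added to them marks RNA for decay. The libraries were strand-specific messenger RNA preparations, so the values below are those of the plastid RNA found in such libraries and do not measure the amount of plastid RNA in the roots.

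Because the values fall on steps of whole fragments, the fragments behind each of them could be counted. All 133 loci together took 7852 fragments over the 18 libraries, from 287 to 731 in a library, or 0.00149% to 0.00397% of its fragments. Of the 2394 values, 888 (37.1%) were 0, 891 stood for 1 to 3 fragments and 176 for more than 10. The median locus had a mean of 0.205 FPKM, against 6.05 FPKM over all loci of the genome that were above 0. There were 88 protein-coding loci, of which 1 was silent, 8 ribosomal RNA loci, of which 0 were silent, and 37 loci for transfer RNAs or not listed, of which 4 were silent. The silent loci were ATCG00050, ATCG00100, ATCG00910, ATCG01200 and ATCG01220. A count of 0 in a library allows up to 3 fragments, so such a locus was not detectable at this depth.

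Gene names were set by hand from the plastid nomenclature and accepted for the 85 of 96 hand-named loci whose counting length lay within 0.5% of that of the RefSeq plastid gene of that name. Other loci are given by identifier only. Of the 85, 21 share their length with a gene of another name (psbA with psbD, rpoA with ccsA, rpl22 with petD, for example), and there the length cannot tell both apart. Genes of the inverted repeat are present as near-identical copies, and their fragments were divided unevenly, with 264 and 167 for the 23S ribosomal RNA, 156 and 85 for the 16S ribosomal RNA, 160 and 88 for ycf2, and 32 and 98 for rpl2. The value of a single copy of such a gene is therefore uncertain.

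The coding sequences of the tested genes are shown because messenger RNA preparations commonly select on runs of A, which a message without a tail can hold inside. Runs of 5 or more A are in capitals. The sequences are those of RefSeq for the plastid record (Pltd) of TAIR10.1, read by gene name, while the authors' build was TAIR10, per the submitters' processing notes. The gene rpl16, for a protein of the large ribosomal subunit, lies at Pltd:81189-82652 on the minus strand, with a first exon of 9 bases and an intron of 1056 bases, and bases 169 to 408 of its coding sequence are printed (Pltd:81189-81428, in the second exon). The gene rpl32, also for a protein of the large ribosomal subunit, lies at Pltd:113449-113607 on the plus strand. The gene psbM, for a small subunit of photosystem II, lies at Pltd:28707-28811 on the minus strand. Of rpoB, for the beta subunit of the plastid RNA polymerase, bases 592 to 691 of the coding sequence are shown (Pltd:25639-25738, minus strand), around its longest run of A.
rpl16: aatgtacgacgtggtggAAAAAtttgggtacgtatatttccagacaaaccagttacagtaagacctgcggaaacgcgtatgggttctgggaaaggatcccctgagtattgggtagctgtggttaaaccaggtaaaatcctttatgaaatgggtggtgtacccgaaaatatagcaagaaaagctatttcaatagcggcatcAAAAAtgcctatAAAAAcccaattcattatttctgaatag
rpl32: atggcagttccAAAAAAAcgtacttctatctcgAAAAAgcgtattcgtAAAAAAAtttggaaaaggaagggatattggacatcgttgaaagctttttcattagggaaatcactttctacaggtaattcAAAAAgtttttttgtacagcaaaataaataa
psbM: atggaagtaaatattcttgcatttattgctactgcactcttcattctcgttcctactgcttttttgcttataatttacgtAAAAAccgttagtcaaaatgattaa
rpoB: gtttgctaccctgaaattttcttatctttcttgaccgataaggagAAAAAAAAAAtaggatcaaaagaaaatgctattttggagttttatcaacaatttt

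All 4 tested coding sequences hold such a run, as do 55 of the 77 coding sequences with an accepted name (71.4%). The longest run of A was 7 bases in rpl32, 5 in psbM, 5 in rpl16 and 10 in rpoB, against a median of 6 and a range of 2 to 14 over the 77 coding sequences. The 77 are loci, and both repeat copies of rpl2, rpl23, rps7 and ycf2 and both loci of ycf1 are counted among them. Across these 77 loci, mean FPKM had a rank correlation of -0.13 with the longest run of A. It was -0.028 with the share of A and T and -0.37 with the coding length. These correlations describe loci that share the same libraries, and at such low counts they are no finding.

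Few loci carried most of the signal. The 23 loci with at least 100 fragments held 64.2% of all chloroplast fragments, and rpoB alone held 1202. The next were ycf1.2, of a gene linked to protein import, with 335 fragments, rpoC1, for another polymerase subunit, with 287, the 23S ribosomal RNA locus rrn23S.1 with 264, psbA, for the D1 protein of photosystem II, with 237, and rbcL, for the large subunit of Rubisco, with 218. Per length, on the FPKM scale, the order was different. The highest mean level was that of rpl32 (2.24 FPKM), followed by psbM (1.14 FPKM), rpoB (1.12 FPKM) and rpl16 (1.08 FPKM). Loci just below the threshold included rpl36 (0.991 FPKM), rpl14 (0.858 FPKM) and rps3 (0.782 FPKM), all for ribosomal proteins, and psbF (0.770 FPKM), for a subunit of cytochrome b559. Among the 10 highest mean levels, 6 were of ribosomal protein genes, 3 of photosystem II genes and 1 of a polymerase gene. The level of psbM stood for 1 to 4 fragments in a library and that of rpl32 for 3 to 11, whereas rpoB had 37 to 97, so rpoB is the best measured of the tested genes.

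**Figure D1:**
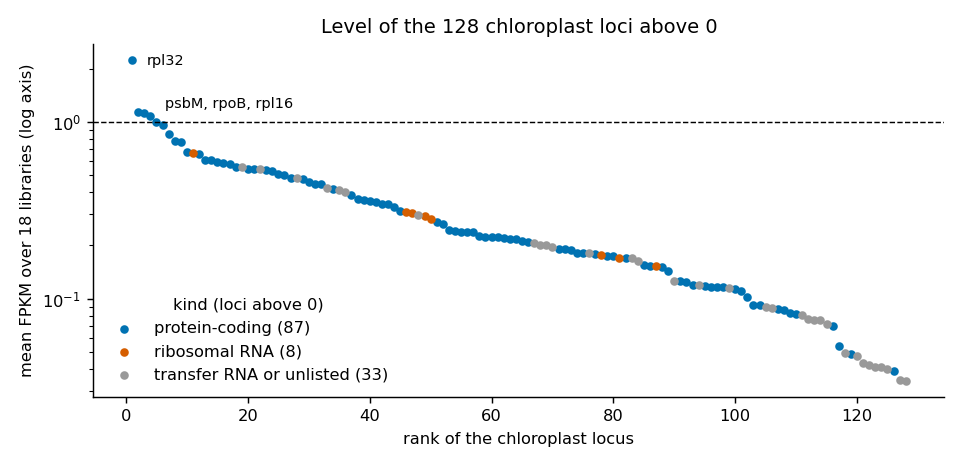
Mean FPKM over the 18 libraries (log axis) of the 128 chloroplast loci above 0, ordered from the highest to the lowest; colours give the kind of locus and the dashed line is the threshold of 1 FPKM for testing. The 4 loci above the line are rpl32, psbM, rpoB and rpl16.

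Summed over all 133 loci, chloroplast fragments were scarcest in the control. The control libraries had 15.3, 15.9 and 15.6 fragments per 1000000 fragments of the library (FPM, mean 15.6 ± 0.261, SD, n = 3). BPA libraries had 24.2, 27.4 and 19.9 FPM, BPB libraries 35.8, 39.7 and 17.5, BPE libraries 23.9, 21.9 and 23.2, BPF libraries 18.8, 25.7 and 25.6 and BPS libraries 14.9, 26.5 and 30.7. Of the 15 libraries from exposed roots, 14 were above the highest control in FPM, and the exception was BPS replicate 1. The group means were 1.53 times the control mean in BPA, 1.99 times in BPB, 1.47 times in BPE, 1.50 times in BPF and 1.54 times in BPS. In summed FPKM the separation was weaker, as the control libraries spread more (25.9 ± 2.99 FPKM, SD, n = 3). There, BPB replicate 3 (24.2 FPKM) lay below the highest control (29.3 FPKM, replicate 2), as did BPS replicate 1. All other exposed libraries lay above it. These sums were given no test, since the members were chosen with earlier results known.

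Libraries of a group differed. BPB replicate 3 lay apart from the other BPB libraries, with an exact 95% Poisson interval of 15.6 to 19.5 FPM against 32.9 to 38.9 for replicate 1, and without it the BPB mean was 2.42 times that of the control. Without BPS replicate 1 the BPS mean was 1.83 times that of the control. The control libraries lay closer together than their own intervals, which ran from 13.6 to 17.8 FPM. Of the 14 libraries above the highest control in FPM, BPB replicate 3 and BPF replicate 1 (16.8 to 21.1 FPM) had intervals that overlapped with those of the control. The intervals cover counting error only, as the labels name no molecular identifiers that would mark copies of a molecule. In bulk roots, fewer cells of a type and less RNA per cell cannot be told apart.

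**Figure D2:**
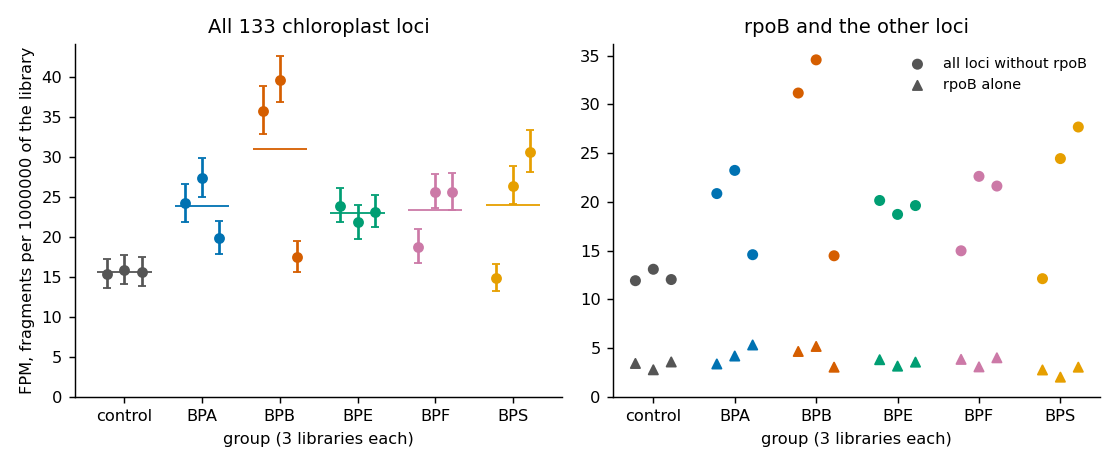
Left, chloroplast FPM of each library with exact 95% Poisson intervals (bars) and group means (lines); right, the same for rpoB alone (triangles) and for all other chloroplast loci (circles). The control libraries lie between 15.3 and 15.9 FPM, and 14 of 15 exposed libraries lie above them. Of these 14, BPB replicate 3 and BPF replicate 1 have intervals that overlap with those of the control.

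Mitochondrial and chloroplast sums both had higher means than the control in every compound group, but not in the same order. In FPKM, the mitochondrial mean was highest in BPE (124) and lowest among the compounds in BPS (71.7). The chloroplast mean was highest in BPB (52.0) and lowest among the compounds in BPF (37.8). The summed FPKM of loci of the mitochondrial genome was 47.5 to 71.0 in the control, 75.1 to 99.5 in BPA, 68.3 to 107 in BPB, 112 to 132 in BPE, 55.2 to 104 in BPF and 61.5 to 79.9 in BPS. In 4 of the 5 compound groups (BPA, BPB, BPF and BPS), the library with the lowest chloroplast sum in FPKM was also the one with the lowest mitochondrial sum. The library with the highest sum was the same in BPA, BPB and BPE and differed in BPF and BPS. Per 100 FPKM of mitochondrial loci, chloroplast loci had 45.9 ± 4.92 FPKM in the control, 44.1 ± 2.53 in BPA, 52.9 ± 15.2 in BPB, 34.0 ± 3.56 in BPE, 45.7 ± 9.36 in BPF and 55.5 ± 20.9 in BPS (SD, n = 3 each). On this scale all BPE libraries lay below the control, and the other groups overlapped with it. Whether a movement shared by both sums has a part in the chloroplast sums was not tested.

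The tissue label was checked on marker genes outside photosynthesis. All 8 root markers were above 0 in every library, with CASP1, of the endodermal barrier, at 73.4 to 179 FPKM, and their summed FPKM was 531 to 698 in the control and 148 to 394 in exposed roots. Of 11 leaf and stomata markers, 1 exceeded 1 FPKM in any library, CER1, of cuticular wax synthesis. The 11 summed to 1.53 to 2.11 FPKM in the control and to 0.875 to 3.02 FPKM in exposed roots, and the stomatal regulators SPCH, MUTE and FAMA did not exceed 0.145 FPKM. The root markers did not move as 1 set. RHS2, a root hair gene, was at 318 to 478 FPKM in the control, 43.6 to 140.2 in BPA, 9.15 to 20.8 in BPB, 209.7 to 224 in BPE, 68.3 to 137 in BPF and 20.9 to 43.3 in BPS, and lay below the control in every exposed library. The other 7 root markers summed to 213 to 221 FPKM in the control, 142 to 193 in BPA, 139 to 251 in BPB, 137 to 184 in BPE, 226 to 252 in BPF and 219 to 277 in BPS. Without RHS2 the sum lay below the control in all BPA and BPE libraries and above it in all BPF libraries, while the ranges of BPB and BPS overlapped with that of the control. The part of these markers in the chloroplast result was not tested.

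Ratios to the control differed between gene groups. The 4 genes of the plastid RNA polymerase (rpoA, rpoB, rpoC1 and rpoC2) held 1836 fragments, 23.4% of the total. Their level was 4.54 ± 0.422 in the control, 6.06 ± 0.430 in BPA, 6.99 ± 1.47 in BPB, 5.69 ± 0.303 in BPE, 5.45 ± 0.748 in BPF and 4.21 ± 0.780 in BPS, in FPM (SD, n = 3 each). Within it, rpoB made up 17.5% to 22.9% of the chloroplast fragments of a control library, 13.9% to 26.7% in BPA, 13.0% to 17.4% in BPB, 14.4% to 15.9% in BPE, 11.9% to 20.4% in BPF and 7.61% to 18.5% in BPS. This share lay below the control in all BPB and BPE libraries and overlapped with it in BPA, BPF and BPS. For BPB the margin was slight, with 17.35% in replicate 3 (55 fragments of rpoB) against 17.47% in control replicate 2 (51 fragments).

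Of the 10 gene groups drawn, photosystem I (7 loci) was the only one in which every exposed library lay above every control library. The margin was narrow, as control replicate 1 and BPA replicate 3 had 12 fragments each (0.641 and 0.658 FPM). BPE replicate 1 had 13 fragments (0.660 FPM). The photosystem I level was 0.553 ± 0.117 in the control, 1.04 ± 0.378 in BPA, 1.84 ± 1.01 in BPB, 1.05 ± 0.392 in BPE, 1.38 ± 0.283 in BPF and 1.68 ± 0.658 in BPS, in FPM. The genes psaA and psaB code for the reaction centre proteins that bind its chlorophyll. The psaA level was 0.0948, 0.145 and 0.117 FPKM in the control, 0.288, 0.150 and 0.195 FPKM in BPA, 0.307, 0.434 and 0.0980 FPKM in BPB, 0.135, 0.183 and 0.120 FPKM in BPE, 0.192, 0.345 and 0.264 FPKM in BPF and 0.193, 0.362 and 0.368 FPKM in BPS. All BPA, BPF and BPS libraries lay above the control there, while BPB and BPE overlapped with it. The psaB level was 0.0484, 0 and 0 FPKM in the control, 0, 0.384 and 0 FPKM in BPA, 0.456, 0.517 and 0.150 FPKM in BPB, 0, 0.257 and 0.163 FPKM in BPE, 0.0842, 0.104 and 0.245 FPKM in BPF and 0.175, 0.222 and 0.326 FPKM in BPS. All BPB, BPF and BPS libraries lay above the control, while BPA and BPE overlapped with it. Such genes were uneven within a group, as BPE replicate 1 had 0 psaB fragments beside 8 and 11 in the other BPE libraries, and BPA replicate 2 had 0 fragments of rps3, a ribosomal protein gene, beside 10 and 14 in the other BPA libraries.

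Photosystem II genes (15 loci, 772 fragments) overlapped with the control in every compound group, with 1.57 ± 0.403 in the control, 2.31 ± 0.886 in BPA, 2.80 ± 1.57 in BPB, 2.01 ± 0.281 in BPE, 2.20 ± 0.702 in BPF and 2.94 ± 1.88 in BPS, in FPM. The rbcL level was 0.148, 0.301 and 0.255 FPKM in the control, 0.369, 0.471 and 0.228 FPKM in BPA, 0.305, 0.717 and 0.575 FPKM in BPB, 0.211, 0.179 and 0.531 FPKM in BPE, 0.258, 0.636 and 0.638 FPKM in BPF and 0.469, 1.06 and 0.690 FPKM in BPS. The control did not overlap with BPB or BPS, and it overlapped with BPA, BPE and BPF. For BPB the margin was slight, as replicate 1 had 7 fragments (0.305 FPKM) and control replicate 2 had 8 (0.301 FPKM) in a deeper library. The NDH complex, which passes electrons around photosystem I, had 0.661 ± 0.261 in the control, 1.24 ± 0.367 in BPA, 1.14 ± 0.528 in BPB, 1.16 ± 0.203 in BPE, 1.44 ± 0.425 in BPF and 1.43 ± 0.751 in BPS, in FPM, and lay above the control in every BPE and BPF library. The ATP synthase genes (450 fragments) had 1.07 ± 0.202 in the control, 1.36 ± 0.633 in BPA, 1.76 ± 0.732 in BPB, 1.90 ± 0.250 in BPE, 1.07 ± 0.110 in BPF and 0.900 ± 0.164 in BPS, with all BPE libraries above the control and no BPF or BPS library above it. The genes of the cytochrome b6f complex and of cytochrome assembly had 0.639 ± 0.225 in the control, 0.626 ± 0.448 in BPA, 0.941 ± 0.436 in BPB, 0.606 ± 0.0608 in BPE, 0.610 ± 0.164 in BPF and 0.520 ± 0.295 in BPS, in FPM. The BPA mean was 0.980 times that of the control, and 0.584 times without BPA replicate 2.

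Of the genes for translation, ribosomal proteins (26 loci, 1489 fragments) had 2.64 ± 0.830 in the control, 4.89 ± 0.726 in BPA, 6.66 ± 3.21 in BPB, 4.82 ± 0.495 in BPE, 3.82 ± 0.467 in BPF and 3.94 ± 0.755 in BPS, in FPM, and all BPA and BPE libraries lay above the control. Ribosomal RNA loci had 1.35 ± 0.309 in the control, 1.47 ± 0.112 in BPA, 2.89 ± 0.788 in BPB, 1.57 ± 0.378 in BPE, 2.38 ± 0.842 in BPF and 3.28 ± 1.97 in BPS, with all BPB libraries above the control and no BPA library above it. The remaining group, of genes such as accD for fatty acid synthesis, clpP for a protease and ycf1, had 2.03 ± 0.180 in the control, 3.98 ± 1.03 in BPA, 4.55 ± 2.06 in BPB, 3.33 ± 0.592 in BPE, 3.82 ± 0.905 in BPF and 3.51 ± 1.42 in BPS. There, all exposed libraries except BPS replicate 1 (2.03 FPM) lay above the highest control (2.206 FPM), BPB replicate 3 only narrowly (2.209 FPM).

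**Figure D3:**
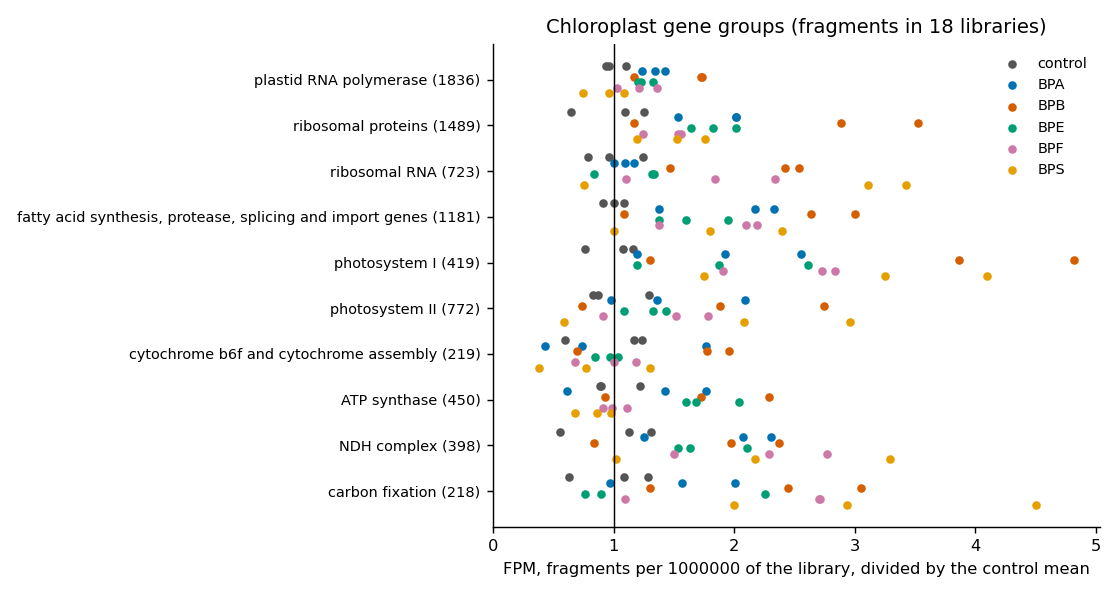
FPM (fragments per 1000000 fragments of the library) for 10 groups of chloroplast genes, divided by the mean of the control libraries (vertical line at 1); each point is a library, and the fragments counted in all 18 libraries stand in brackets. Photosystem I genes lie above the control libraries in all 15 exposed libraries, narrowly in BPA replicate 3, which had 12 fragments like control replicate 1.

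For single genes, log2(FPKM + 1) was tested with limma over all 19484 loci of the genome with a mean of at least 1 FPKM, and a gene was called at a Benjamini-Hochberg adjusted p below 0.05. On this scale changes of such low values are understated. Of the 4 tested chloroplast genes, 1, rpl16, was called for any difference among the 6 groups (F test, adjusted p = 0.0312), where 53.3% of all tested loci were called. This call was lost with a pseudocount of 0.1, and without control replicate 1 or 3, BPB replicate 1 or 2, or BPE replicate 2 (0 genes called in each). The F test gave adjusted p = 0.217 for rpoB, 0.558 for psbM and 0.659 for rpl32. In the comparisons with the control, rpl16 was called higher in BPB, where 36.6% of all loci were called (25.5% as higher). The rpl16 mean over all libraries (1.08 FPKM) passed the filter of 1 FPKM only through BPB, its highest group (1.90 FPKM). The filter was therefore not independent of the F test and BPB calls of rpl16. With no filter, rpl16 was called in BPB too (limma, adjusted p = 0.0154). By limma, 0 of the 4 were called in BPA (10.4% of all loci called), BPE (14.3%), BPF (1.39%) and BPS (21%). At an unadjusted p below 0.05, 1 gene passed in BPA, 1 in BPE, 0 in BPF and 0 in BPS. Set against the shares of all loci, the counts of calls are no result about the chloroplast genes as a group. For the unadjusted counts no such share was taken, and they are no result either.

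The rpl16 level was 0, 0.798 and 0.515 FPKM in the control, 1.01, 1.80 and 1.21 FPKM in BPA, 1.69, 3.06 and 0.947 FPKM in BPB, 1.24, 1.52 and 1.43 FPKM in BPE, 0.910, 0.785 and 1.06 FPKM in BPF and 0.710, 0 and 0.812 FPKM in BPS. The BPA, BPB and BPE libraries all lay above the highest control, while BPF and BPS libraries overlapped with the control. The libraries at 0 were control replicate 1, where 3 fragments would stand for 0.393 FPKM, and BPS replicate 2, where they would stand for 0.400 FPKM. In BPB the mean was 1.90 ± 1.07 FPKM against 0.438 ± 0.405 FPKM in the control (SD, n = 3), a log2 change of 0.99 with a 95% half-width of 0.60 (limma, adjusted p = 0.0122). The log2 change was 0.73 in BPA (adjusted p = 0.101), 0.78 in BPE (adjusted p = 0.0728), 0.46 in BPF (adjusted p = 0.424) and 0.062 in BPS (adjusted p = 0.904), each with the same half-width.

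The rpl16 call rests on 10 fragments in the control and 41 in BPB. It was lost without control replicate 1 (adjusted p = 0.0703), without BPB replicate 2 (adjusted p = 0.0745) and when only the 6 libraries of both groups were fitted (adjusted p = 0.0638, limma). It was also lost with no filter and a pseudocount of 0.1, a setting added after seeing the data (adjusted p = 0.0516).

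None of rpl32, rpoB and psbM was called against the control. The rpl32 level was 1.34, 2.05 and 1.65 FPKM in the control, 2.97, 2.49 and 2.41 FPKM in BPA, 3.16, 3.42 and 1.04 FPKM in BPB, 2.55, 2.59 and 2.55 FPKM in BPE, 1.17, 1.15 and 3.74 FPKM in BPF and 1.52, 3.08 and 1.39 FPKM in BPS. BPA and BPE libraries lay above the control, with log2 changes of 0.44 in BPA (adjusted p = 0.387) and 0.42 in BPE (adjusted p = 0.386), each with a half-width of 0.68. The rpoB level was 1.06, 0.860 and 1.11 FPKM in the control, 1.05, 1.30 and 1.65 FPKM in BPA, 1.44, 1.60 and 0.943 FPKM in BPB, 1.18, 0.976 and 1.10 FPKM in BPE, 1.19, 0.953 and 1.24 FPKM in BPF and 0.855, 0.625 and 0.944 FPKM in BPS. All groups overlapped with the control for rpoB, and its log2 changes ran from -0.16 in BPS (adjusted p = 0.481) to 0.21 in BPA (adjusted p = 0.362) with a half-width of 0.30, the narrowest of the 4 genes. The psbM level was 1.53, 1.03 and 1.00 FPKM in the control, 1.12, 0.538 and 0.522 FPKM in BPA, 1.20, 2.07 and 0.526 FPKM in BPB, 1.93, 1.96 and 0.857 FPKM in BPE, 1.18, 0.436 and 1.03 FPKM in BPF and 0.460, 2.07 and 1.05 FPKM in BPS. All groups overlapped with the control for psbM too, with log2 changes from -0.35 in BPA (adjusted p = 0.473) to 0.22 in BPE (adjusted p = 0.651) and a half-width of 0.64. The median log2 change of the 4 genes was 0.32 in BPA, 0.27 in BPB, 0.32 in BPE, 0.078 in BPF, 0.0045 in BPS, beside 0.038 in BPA, 0.16 in BPB, 0.040 in BPE, 0.013 in BPF, 0.091 in BPS over all tested loci. With 1 library left out, the median of the 4 genes was 0.29 to 0.34 in BPA, 0.12 to 0.51 in BPB, 0.26 to 0.43 in BPE, -0.13 to 0.20 in BPF and -0.10 to 0.077 in BPS.

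**Figure D4:**
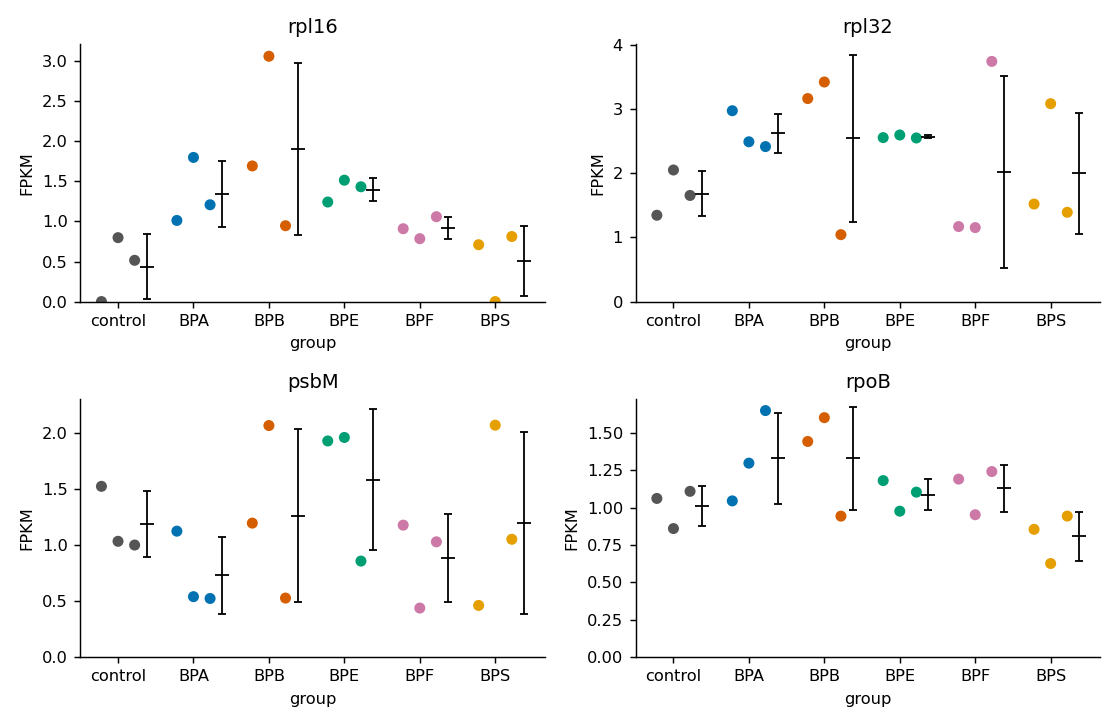
FPKM of the 4 tested chloroplast genes in each library (points), with the mean and SD of each group of 3 libraries (black). For rpl16 the BPA, BPB and BPE libraries lie above the highest control value of 0.798 FPKM.

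The gene rpl16 belongs to a cluster of 11 neighbouring loci on the minus strand, from rpoA to rpl23.1, which codes for ribosomal proteins and the alpha subunit of the polymerase. The cluster held 1012 fragments, 12.9% of all chloroplast fragments, on 5.79% of the summed counting length, and 5 of its genes were among the 10 highest mean levels. Its level was 1.71 ± 0.745 in the control, 3.56 ± 0.473 in BPA, 4.40 ± 2.26 in BPB, 3.62 ± 0.636 in BPE, 2.63 ± 0.549 in BPF and 2.26 ± 0.770 in BPS, in FPM (SD, n = 3 each), with all BPA and BPE libraries and 2 of 3 BPB libraries above the control. The level of rpl14, beside rpl16, was 0.145, 0.294 and 0.427 FPKM in the control, 0.960, 1.22 and 0.891 FPKM in BPA, 1.36, 2.36 and 0.898 FPKM in BPB, 0.962, 0.698 and 1.34 FPKM in BPE, 0.503, 0.992 and 0.293 FPKM in BPF and 0.915, 0.442 and 0.748 FPKM in BPS. The BPA, BPB, BPE and BPS libraries lay above the control, and BPF overlapped with it. The genes of the cluster did not move as one. The rpl22 level was 0.148 ± 0.0664 FPKM in the control and 0.886 ± 0.422 FPKM in BPB, whereas rps19 had 0.254 ± 0.106 and 0.270 ± 0.295 FPKM in the same groups.

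Loci below the threshold were tested under wider filters. With a mean of at least 0.5 FPKM, a setting chosen after seeing the data, 25 chloroplast genes were tested, 2 (rpl14 and rpl16) were called by the F test (51.8% of all loci called) and 4 were called higher in BPB (35.9%). The 4 were rpl14 (adjusted p = 0.00302), rpl22 (adjusted p = 0.0102), rpl16 (adjusted p = 0.0118) and rpl20 (adjusted p = 0.0492, limma), all for proteins of the large ribosomal subunit. Of that subunit, rpl32, rpl33 and rpl36 were tested too and not called. The means of rpl22 (0.544 FPKM) and rpl20 (0.531 FPKM) passed 0.5 FPKM only with the BPB libraries included, so this filter was not independent of their calls. Of both, rpl22 alone was called in BPB when no filter was used. With no filter, 128 loci were tested and 8 were called by the F test (39.1% of all loci called). There, 9 were called higher in BPB (28.5%), 2 in BPE (8.53%), 3 in BPS (14.5%) and 0 in BPA (6.08%) and BPF (0.637%), with 0 lower. None of these counts of calls, as a share of the 128 loci, exceeded the share of all loci called. At an unadjusted p below 0.05, 9 loci in BPA and 4 in BPF passed. The share of all loci at that threshold was not taken, so these 2 counts are no result.

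Among those called in BPB without a filter were rps4, for a ribosomal protein, at 0, 0 and 0.173 FPKM in the control and 0.622, 0.269 and 0.455 FPKM in BPB (limma, adjusted p = 0.00954), and psaB (adjusted p = 0.0234). The gene ndhE, for a subunit of the NDH complex, had the lowest adjusted p in BPS (adjusted p = 0.00504), with 0, 0 and 0 FPKM in the control and 0.473, 0.533 and 0.181 FPKM in BPS. These BPS levels stood for 3, 3 and 1 fragments. In BPS, rbcL was called too (adjusted p = 0.0415, limma). Some other calls without a filter stood for 0 to 2 fragments in a library, against 0 in every control library. Those in BPE were ATCG00610 (1, 0 and 1 fragments) and psaC (1, 1 and 2), and that in BPS was ATCG00880 (0, 1 and 1). Of the 128 loci above 0, 77 had a higher mean level than the control in BPA (60.2%, against 55.3% of all loci above 0), 107 in BPB (83.6% against 64.4%), 85 in BPE (66.4% against 50.8%), 84 in BPF (65.6% against 50.7%) and 88 in BPS (68.8% against 58.4%). These comparisons share the control libraries.

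Between compounds, 10 pairs were compared for each of the 4 tested genes with limma, and 0 genes were called in any pair. The share of all tested loci called was 9.94% between BPB and BPA, 2.63% between BPE and BPA, 0.0667% between BPF and BPA, 18.2% between BPS and BPA, 31.3% between BPE and BPB, 28% between BPF and BPB, 9.24% between BPS and BPB, 16% between BPF and BPE, 39.4% between BPS and BPE, and 3.04% between BPS and BPF. At an unadjusted p below 0.05, 2 genes passed between BPS and BPA, 2 between BPS and BPB and 1 between BPS and BPE, and 0 in the other pairs. The share of all loci at that threshold was not taken. Over the 10 pairs, 20 calls were made with no filter (10.8% of all tests) and 2 at a mean of at least 0.5 FPKM (15.2%).

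The lowest adjusted p between compounds were those of rpl16, which passed the filter of 1 FPKM only through BPB. The log2 difference of rpl16 was -0.93 ± 0.60 (95% half-width) for BPS minus BPB (limma, adjusted p = 0.0501) and -0.72 ± 0.60 for BPS minus BPE (adjusted p = 0.0536). For rpoB, BPS minus BPA was -0.36 ± 0.30 (adjusted p = 0.0864). Between BPA and BPB, which differ by an ethyl in place of a methyl group, the log2 difference (BPB minus BPA) was 0.26 ± 0.60 for rpl16, -0.0038 ± 0.30 for rpoB, -0.11 ± 0.68 for rpl32 and 0.35 ± 0.64 for psbM. Between BPA and BPF, whose bridge lacks the methyl groups, it was -0.28 ± 0.60 for rpl16 and -0.13 ± 0.30 for rpoB (BPF minus BPA). These intervals leave room for differences in either direction.

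The nuclear genes that run plastid transcription were measured well above most chloroplast loci. The list held 21 genes, the sigma factors SIG1 to SIG6, the phage-type polymerases RPOTp and RPOTmp and proteins associated with the plastid-encoded polymerase (PAPs and FLN2), and 20 were tested. In BPB, 15 of the 20 were called higher and 0 lower (25.5% of all loci called as higher), with a median log2 change of 0.78 beside 0.16 over all loci. In BPA 2 were called higher (6.57%), in BPE 4 (9.08%), in BPF 0 (0.708%), and in BPS 5 (12.3%), where 1 was called lower. In BPF 4 passed an unadjusted p below 0.05 (limma), a threshold at which the share of all loci was not taken. The sigma factor SIG5, which responds to light and stress, was at 6.73, 8.41 and 3.89 FPKM in the control, 18.7, 28.2 and 16.9 FPKM in BPA, 43.9, 46.5 and 32.8 FPKM in BPB, 22.7, 16.4 and 9.88 FPKM in BPE, 6.14, 11.0 and 14.0 FPKM in BPF and 9.83, 12.9 and 15.3 FPKM in BPS. The BPA, BPB, BPE and BPS libraries lay above the control, and BPF overlapped with it. Its log2 change was 1.62 in BPA (limma, adjusted p = 0.0100), 2.56 in BPB (adjusted p = 6.93e-05), 1.22 in BPE (adjusted p = 0.0267), 0.62 in BPF (adjusted p = 0.346) and 0.93 in BPS (adjusted p = 0.0573).

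In BPB, PAP7 rose from 2.38 ± 0.478 to 6.93 ± 0.640 FPKM (limma, adjusted p = 9.87e-05), and the sigma factor SIG3 from 3.54 ± 0.272 to 8.77 ± 1.04 FPKM (adjusted p = 0.000132). SIG6 rose in BPA from 2.83 ± 1.38 to 5.37 ± 1.28 FPKM (limma, adjusted p = 0.0482). In BPE, SIG2 rose by 0.54 (adjusted p = 0.0344) and PAP12 by 0.45 (adjusted p = 0.0465) on the log2 scale. In BPS, PAP7 rose to 4.37 ± 0.207 FPKM (adjusted p = 0.0105) and SIG3 to 5.44 ± 0.830 FPKM (adjusted p = 0.0342). RPOTp, the phage-type polymerase of plastids, fell in BPS from 8.21 ± 1.32 to 5.10 ± 0.550 FPKM, a log2 change of -0.59 (limma, adjusted p = 0.0246). The counts for BPA, BPE and BPS moved with single libraries, to 0, 0 and 2 called genes without control replicate 3, and that for BPB lay between 11 and 16.

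The nuclear photosynthesis list (32 genes, 30 tested) had 28 genes called higher in BPB (25.5% of all loci called as higher), 24 in BPA (6.57%), 27 in BPE (9.08%), 21 in BPS (12.3%) and 1 in BPF (0.708%), and 0 lower. Its summed FPKM was 163 to 378 in the control, 689.9 to 1158 in BPA, 1354 to 1419 in BPB, 671 to 795 in BPE, 312 to 717 in BPF, 457 to 1026 in BPS. Both the nuclear and the chloroplast sum had their lowest group mean in the control (249 FPKM and 15.6 FPM). Their highest group mean was in BPB (1392 FPKM and 31.0 FPM). A link between both sums was not tested, and they did not move together in every library. BPB replicate 3 had a nuclear sum of 1354 FPKM with 17.5 chloroplast FPM, and BPF replicate 2 had a nuclear sum of 312 FPKM with 25.7 chloroplast FPM.

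**Figure D5:**
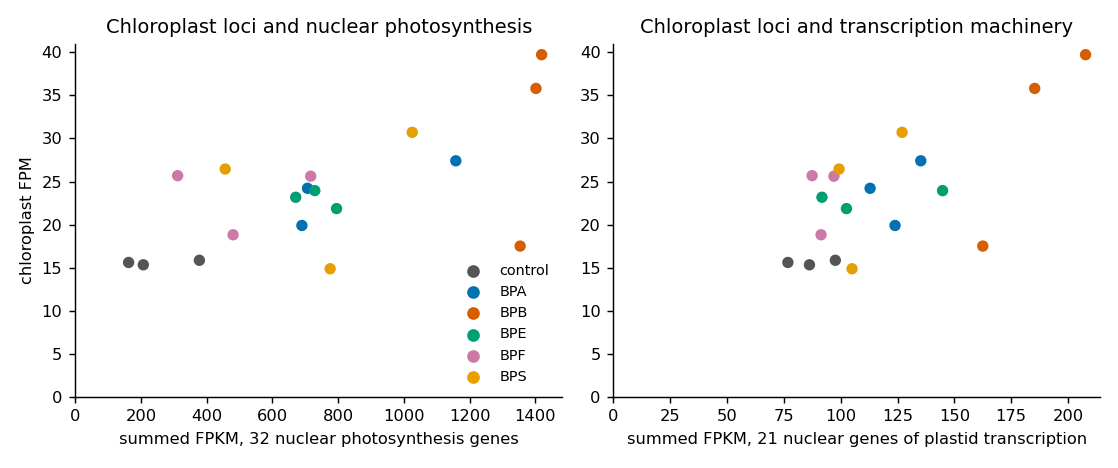
Chloroplast FPM of each library against the summed FPKM of 32 nuclear photosynthesis genes (left) and of 21 nuclear genes of plastid transcription (right); colours give the group. On the left, BPB replicate 3 lies at 1354 FPKM and 17.5 FPM, BPS replicate 1 at 776 FPKM and 14.9 FPM, and BPF replicate 2 at 312 FPKM and 25.7 FPM.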

How the data were processed

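RNA of roots was measured in 18 libraries, 3 in each of 6 groups taken from the sample titles. Per the file headers, the authors deposited FPKM for each of 33602 loci. The submitters' processing notes name the tools edgeR, StringTie (1.3.0) and HISAT2 (2.0.4) and the build TAIR10, without a role or setting for any of them. The annotation release and any filter are not given in the sources used here. Fragment totals of the libraries (15.9 to 22.2, in units of 1000000) and the fragments behind each chloroplast value were recovered from the steps between values. The chloroplast values came out within 0.0128 of a whole number of fragments. Only lengths that gave near-whole numbers were accepted, so this closeness was built in. At the totals found, 55.8% to 63.4% of low values of nuclear loci with a single transcript lay within 0.02 of a whole number. The totals were chosen to raise that share.

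Loci with a mean of at least 1 FPKM were analysed as log2(FPKM + 1) with limma 3.58.1 in R 4.3.3, with 1 coefficient per group, an intensity trend and no batch term, since the labels name no batch. P-values are two-sided and were adjusted by Benjamini-Hochberg over all 19484 tested loci within each of 15 comparisons and the F test. Fits and fragment recovery were tested on simulated data. The members and gene lists were chosen with earlier results of these data known, so lists are given as counts and medians without a test. Named by rule are the tested genes with the highest means in each gene group, called chloroplast genes, and up to 3 called genes of plastid transcription per comparison with control. Those described from wider filters, and members named for their fragments or position, were chosen after their values were seen. Alternatives were other scalings, filters, pseudocounts and variance priors, the replicate number as a block, copies of the inverted repeat summed, only the libraries compared, and each library left out in turn. Median changes for pairs of compounds are not reported. The values of 1 locus are not reported here.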

Additional observations from a re-analysis of the deposited data

How the results depend on the processing

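Depth limits these results, since 4 of 133 loci could be tested and a chloroplast value stood for few fragments. The rpl16 call in BPB and that of the F test held under quantile normalization, equal nuclear medians, scaling to the nuclear total, no intensity trend, the replicate block and summed copies of the inverted repeat. Replicate numbers were not taken as pairing the libraries, since no label says that a number marks a shared batch. The deviations of same-numbered libraries correlated over 0.1 in 15 of 45 pairs (median -0.0042), and those of differently numbered libraries in 28 of 90 (median 0.013). Of 18 libraries, 12 correlated best with a library of their own number, a hint from the data and not from the design. With the replicate block, 1 chloroplast gene was called in BPB (rpl16, adjusted p = 0.0170), 1 by the F test and 0 elsewhere, and the genes of plastid transcription called were 1 in BPA, 15 in BPB, 2 in BPE and 3 in BPS.

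The F test called 8 chloroplast genes with no filter, 0 with a pseudocount of 0.1, 2 with a mean of at least 0.5 FPKM and 8 with no filter and a pseudocount of 0.1. The last 2 settings were chosen after seeing the data. In the same order of settings where the count moved, BPB had 9 with no filter, 4 at 0.5 FPKM and 7 with no filter and a pseudocount of 0.1, and 0 with only the libraries compared. BPA had 3 with no filter and a pseudocount of 0.1. BPE had 2, 3 and 1 (no filter, no filter with a pseudocount of 0.1, only the libraries compared), and BPS 3 and 3 (no filter, without and with that pseudocount). Over the 10 pairs of compounds the count was 1 under quantile normalization, 1 with equal nuclear medians, 1 with the nuclear total, 20 with no filter, 2 with no intensity trend, 2 at 0.5 FPKM and 16 with no filter and a pseudocount of 0.1. The calls with 1 or 2 were of rpl16, lower in BPS than in BPB or BPE, except 1 of the 2 at 0.5 FPKM (rpl14, lower in BPF than in BPB). Fewer or more loci were tested under other filters. Otherwise the cause was not tested. Of these alternatives, shares of all loci called are given above only for no filter and for 0.5 FPKM. The counts under the others, among them no filter with a pseudocount of 0.1, are therefore no result about the chloroplast genes as a group.

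With 1 library left out, the F test called 0 to 1 genes (0 without control replicate 1 or 3, BPB replicate 1 or 2, or BPE replicate 2), BPB 0 to 1, BPE 0 to 1 (1 without BPB replicate 3) and the pairs 0 to 3 (3 without BPB replicate 3, 2 without BPS replicate 3, 1 without control replicate 1 or BPB replicate 2). A group left with 2 libraries is assumed to vary like the others. Genes of plastid transcription called were 0 to 3 in BPA, 11 to 16 in BPB, 0 to 5 in BPE and 1 to 8 in BPS. Under other settings, all of them added for this list after seeing the data, they were 1 in BPA (quantile normalization, no filter, no filter with a pseudocount of 0.1), 2 in BPE (only the libraries compared), and in BPS 3 (quantile normalization, equal nuclear medians, and no filter with either pseudocount) or 2 (only the libraries compared).

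The median log2 change of tested chloroplast genes moved with no filter to 0.048 in BPA and 0.087 in BPE, with a pseudocount of 0.1 to 0.49 in BPA and 0.46 in BPE, with both to 0.19 in BPA, 0.46 in BPE, 0.37 in BPF and 0.49 in BPS, and under quantile normalization to -0.029 in BPF and -0.13 in BPS. With 1 library left out, it was -0.13 to 0.20 in BPF. Equal nuclear medians moved the median of all loci in BPB from 0.16 to -0.017. Without rpoB, an alternative added after seeing the data, the chloroplast sum was 1.58 times the control in BPA, 2.17 in BPB, 1.58 in BPE, 1.60 in BPF and 1.73 in BPS, against 1.53, 1.99, 1.47, 1.50 and 1.54 with it.

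Changes that were not called reversed in sign as follows. In BPB, psbM was -0.15 (quantile normalization), -0.18 (equal nuclear medians) and -0.068 (pseudocount of 0.1, with or without a filter), and -0.25 to 0.26 with 1 library left out. In BPE, rpoB was -0.015 (equal nuclear medians). In BPF under quantile normalization, rpoB was -0.030 and rpl32 -0.029, and rpl32 was -0.30 to 0.27 with 1 library left out. In BPS, rpl16 was -0.028 (quantile normalization) and -0.033 (equal nuclear medians) and rpl32 -0.031 (quantile normalization). With 1 library left out in BPS, psbM was -0.33 to 0.21, rpl16 -0.18 to 0.33 and rpl32 -0.12 to 0.27.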
